A study of Mus musculus with 6 samples.

Results

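Of the 46983 genes in the expression table, 9 were followed here, the genes of the chemokine receptors known from B cells: *Ccr6*, *Ccr7*, *Ccr9*, *Ccr10*, *Cxcr3*, *Cxcr4* and *Cxcr5*, and the atypical receptors *Ackr2* and *Ackr3*. They were chosen by name, for what the receptors are known to do, and not by a threshold on a measured value. Bulk RNA-seq was performed on splenic B cells cultured for 3 days under IgA class switching, in medium with TGF-β, IL-5 and BAFF (each at 10 ng/ml) and the TLR4 ligand LPS (5 μg/ml). There were 3 WT and 3 *Hif1a* KO libraries. All libraries had the same culture, and the groups differed in the *Hif1a* genotype. Per the study's methods, *Hif1a* KO B cells came from C57BL/6 mice with floxed *Hif1a* alleles and Mb1-cre, a Cre driven from *Cd79a* in the B lineage from an early stage, and were sorted as follicular B cells. The WT controls were littermates that carried 1 floxed allele with Cre or both floxed alleles without Cre, and the labels do not give which library had which. The labels do not say that libraries of a group came from separate mice or cultures, so the p-values measure the spread between these samples, which may be technical. The question was whether transcripts of the receptors that guide B cells differed with the *Hif1a* genotype in this culture.

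Chemokine receptors are G protein-coupled receptors that steer cell migration along gradients of chemokines. In B cells, CXCR5 and its ligand CXCL13 lead to the follicle, CCR7 with CCL19 and CCL21 leads to the T-cell zone, and CXCR4 with CXCL12 holds cells in bone marrow and in the germinal center dark zone. CCR6 with CCL20 brings B cells to the subepithelial dome of Peyer's patches. CCR9 with CCL25 and CCR10 with CCL28 bring IgA plasma cells to the small intestine and to other mucosae. CXCR3 with CXCL9, CXCL10 and CXCL11 guides cells to inflamed tissue. ACKR2 and ACKR3 do not signal through G proteins and take up chemokines, ACKR2 inflammatory CC chemokines and ACKR3 CXCL12 and CXCL11. HIF-1α is a transcription factor stabilised in low oxygen, and *Cxcr4* is among the genes known to respond to hypoxia in several cell types.

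The values were FPKM, reads scaled to transcript length and to library size. The library sizes behind the FPKM, recovered from the values, were 25030210 to 37222477 reads, which need not be all reads sequenced. The library labelled WT replicate 1 stood apart from the other 2 WT libraries. On the first principal component of log2(FPKM + 1), with 54.7% of the variance, it was at −15.7, beside the KO libraries at −19.5 to −7.10, while WT replicates 2 and 3 were at 26.2 and 25.9. The *Hif1a* FPKM was 36.5, 49.8 and 45.8 in WT replicates 1 to 3 and 46.5, 45.5 and 52.8 in the KO libraries, a whole-gene value that includes parts of the gene outside the floxed segment and so does not check the deletion. The B-cell markers were all expressed, with a summed FPKM of 9002 to 13203 in WT and 11060 to 12667 in KO libraries. The Y-linked transcript *Ddx3y* had an FPKM of 43.3 in *Hif1a* KO replicate 2 and at most 0.00945 elsewhere. Because WT replicate 1 stood apart, each receptor and ratio is compared also without it. That library was singled out by its values, which resembled those of KO, so leaving it out favours separation of the groups. The p-values without WT replicate 1 depend on that choice and are no independent test of the genotype. Fewer cells of a type and less RNA per cell cannot be told apart in these bulk libraries.

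All 9 receptor genes had reads in every library, and their mean FPKM over the 6 libraries formed a high and a low tier. *Cxcr4* (192 ± 33.0, SD, n = 6), *Ccr6* (192 ± 34.9), *Cxcr5* (90.2 ± 8.79) and *Ccr7* (84.5 ± 14.7) made up the high tier. *Ackr3* (5.95 ± 2.93), *Ackr2* (5.31 ± 1.49), *Ccr9* (4.17 ± 3.04), *Ccr10* (2.94 ± 1.47) and *Cxcr3* (1.06 ± 0.245) made up the low tier. *Ccr6* was above *Cxcr5* and *Ccr7* was above *Ackr3* in 6 of 6 libraries, whereas neighbours within a tier changed places between libraries. *Cxcr4* was above *Ccr6* in 4 of 6 libraries, *Cxcr5* above *Ccr7* in 4, *Ackr3* above *Ackr2* in 2, *Ackr2* above *Ccr9* in 3 and *Ccr9* above *Ccr10* in 4, and *Ccr10* was above *Cxcr3* in all 6. These levels depend on the transcript length behind the FPKM, which for *Cxcr4* was 1354 bases against 1805 in its longest annotated transcript. With FPKM rescaled to the longest transcript, the mean was 144 for *Cxcr4* and 157 for *Ccr6*, and *Cxcr4* was above *Ccr6* in 2 of 6 libraries. The order in the low tier turned as well, with means of 4.90 for *Ackr2*, 3.37 for *Ackr3*, 2.94 for *Ccr10*, 2.46 for *Ccr9* and 1.06 for *Cxcr3*.

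The 4 receptors of the high tier held 91.7% to 93.7% of the summed FPKM of all 24 chemokine receptor genes in the table. The share of *Cxcr4* was 29.4% to 35.2%, that of *Ccr6* 25.8% to 38.6%, that of *Cxcr5* 14.1% to 16.3% and that of *Ccr7* 10.6% to 18.1%. *Cxcr5* had the narrowest range of levels, a 1.31-fold span over the 6 libraries, and *Ccr9* the widest, a 7.99-fold span.

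**Figure D1:**
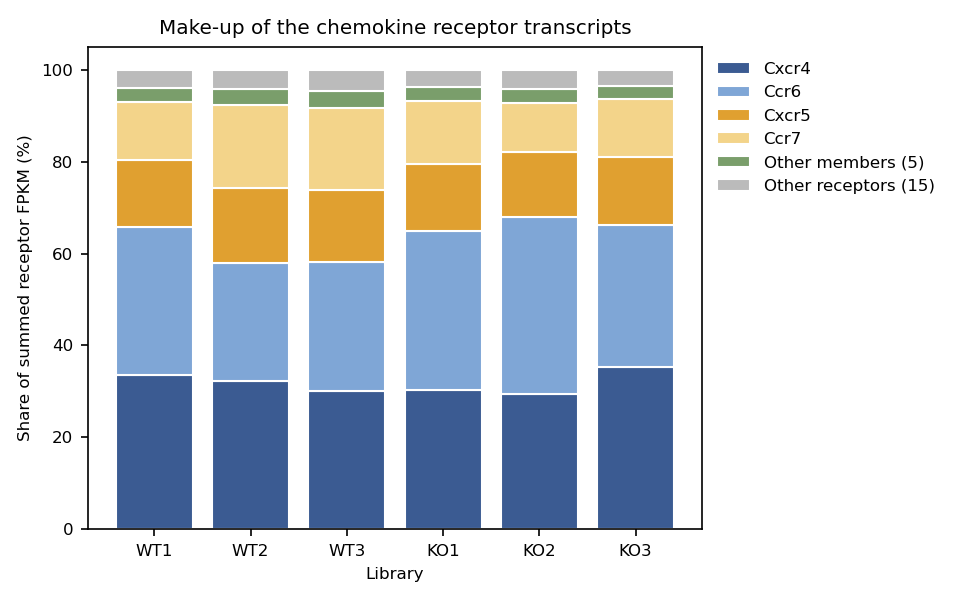
Stacked bars give the share (%) of each receptor in the summed FPKM of the 24 chemokine receptor genes, per library. The 4 highest receptors fill 91.7% to 93.7% of each bar, and the *Ccr6* band is thinnest in WT replicate 2 (25.8%) and thickest in *Hif1a* KO replicate 2 (38.6%).

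In the comparison of *Hif1a* KO with WT control B cells over all 6 libraries, no chemokine receptor passed an adjusted p of 0.05 (limma with Benjamini-Hochberg adjustment over 13312 genes). Fold changes are on the log2(FPKM + 1) scale, which understates changes of low genes. Of the 9 receptors, 6 had a fold change above 0 and 3 below 0, with a median of 0.090 against −0.028 over all genes tested. Over all genes, 0% were called at the adjusted p, 6.98% had an unadjusted p under 0.05 and 10.1% had groups that did not overlap, against 0, 1 and 0 of the 9 receptors. In all 9 receptors the value of WT replicate 1 lay within the range of the KO libraries, and in 8 of 9 it was nearer to the KO mean than to the mean of WT replicates 2 and 3. The share of all genes with such positions was not counted. WT replicate 1 was also beside the KO libraries on the first principal component of all genes tested, so this is not particular to the receptors. Without WT replicate 1, 3 of the 9 receptors were called, where 9.40% of all genes were, and 7 of 9 had groups that did not overlap, where 50.5% of all genes did.

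**Figure D2:**
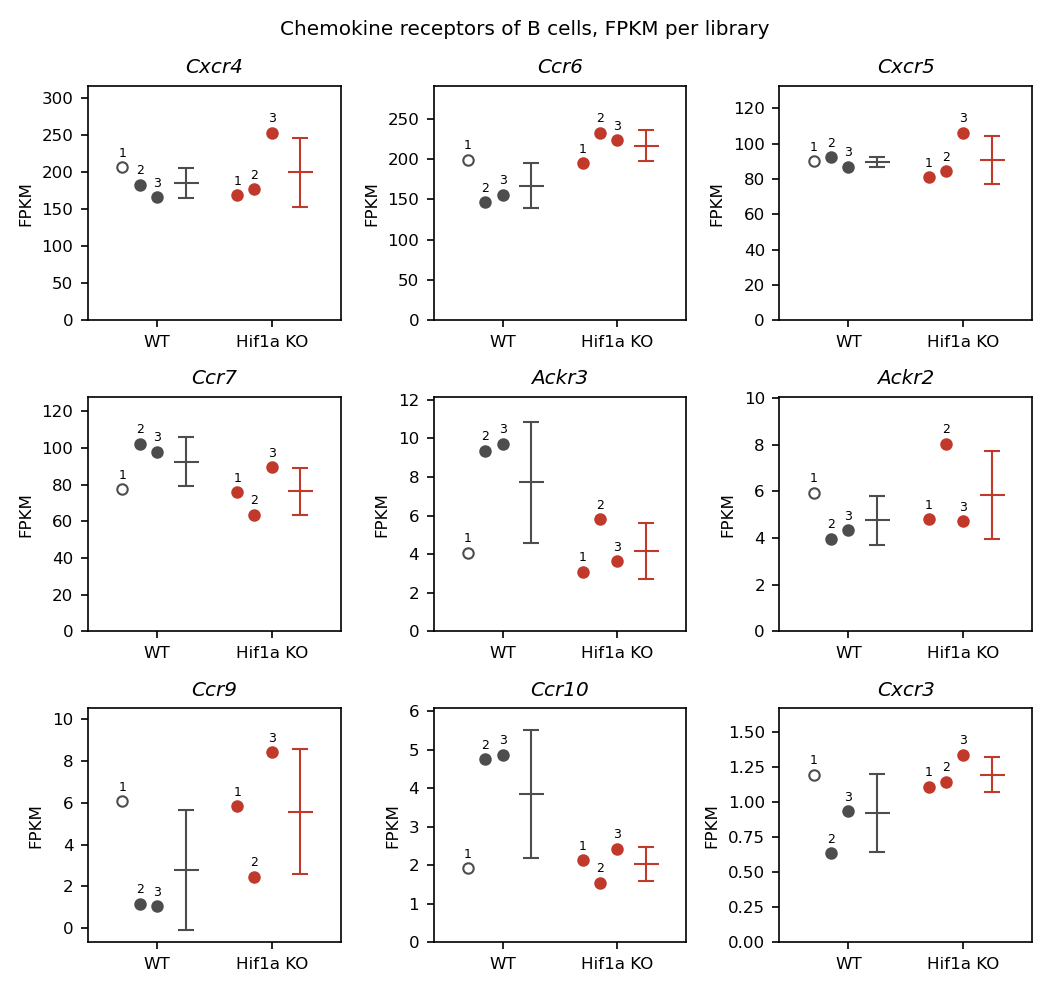
FPKM of each receptor (vertical axis, linear, its own scale in each panel) in the 3 WT libraries (grey, WT replicate 1 open) and the 3 *Hif1a* KO libraries (red), numbered by replicate, with the mean ± SD beside them. The open symbol lies within the range of the red symbols in all 9 panels.

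*Ccr6* (ENSMUSG00000040899, chr17:8236043-8257141, plus strand of mm10), the receptor of CCL20, was the only member with an unadjusted p under 0.05. Its FPKM was 199, 146 and 155 in WT replicates 1 to 3 and 194, 232 and 223 in KO replicates 1 to 3. The KO libraries were above WT replicates 2 and 3, and KO replicate 1 was just below WT replicate 1, so the groups overlapped. The mean was 167 ± 28.3 (SD, n = 3) in WT and 217 ± 19.7 in KO, a log2 fold change of 0.38 (SE 0.13, 95% interval 0.076 to 0.69). The limma p was 0.0216 and the adjusted p 0.626. Without WT replicate 1, *Ccr6* was higher in *Hif1a* KO cells by 0.52 on the log2 scale (limma adjusted p = 0.0244, range over alternatives 0.0244 to 1).

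*Ccr7* (ENSMUSG00000037944, chr11:99144196-99155077, minus strand), the receptor for the T-cell zone chemokines, had the opposite sign. Its FPKM was 77.5, 102 and 98.1 in WT replicates 1 to 3 and 76.0, 63.7 and 89.6 in KO replicates 1 to 3. WT replicates 2 and 3 were above all KO libraries, and WT replicate 1 was between them. On the log2 scale KO differed from WT by −0.28 (SE 0.15, 95% interval −0.64 to 0.081), with an adjusted p of 0.626. It was −0.40 without WT replicate 1 (adjusted p = 0.119), so no difference in *Ccr7* passed the test in either fit.

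*Cxcr5* (ENSMUSG00000047880, chr9:44511787-44561877, minus strand), the follicular homing receptor, had the smallest difference of the 9. Its FPKM was 89.9, 92.5 and 87.0 in the WT libraries and 81.0, 84.5 and 106 in the KO libraries, so that KO replicates 1 and 2 were below and KO replicate 3 above every WT library. The difference was 0.0020 on the log2 scale (SE 0.11, 95% interval −0.25 to 0.25), with an adjusted p of 0.996, and the interval leaves room for a change of 0.25 either way. The sign of this value changed in 4 alternatives. *Cxcr5* shares 110 exon bases with *Bcl9l* on the other strand, which had an FPKM of at most 10.6, and the study's methods do not state whether reads were counted by strand.

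*Cxcr4* (ENSMUSG00000045382, chr1:128588199-128592293, minus strand), the CXCL12 receptor, had an FPKM of 207, 182 and 166 in WT and 169, 177 and 252 in KO replicates 1 to 3. KO replicate 3 was the highest library, and the other KO libraries lay among the WT values. KO and WT differed by a log2 fold change of 0.090 (SE 0.16, 95% interval −0.30 to 0.48), with an adjusted p of 0.850. Leaving out KO replicate 3 gave −0.092, so the direction rested on that library, and leaving out WT replicate 1 gave 0.17 (adjusted p = 0.558).

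Of the gut and mucosal homing receptors, *Ccr9* (ENSMUSG00000029530, chr9:123678439-123784330, plus strand) had the largest difference of the 9. Its FPKM was 6.09, 1.17 and 1.05 in WT and 5.82, 2.47 and 8.43 in KO replicates 1 to 3, from 84 to 772 reads. WT replicates 2 and 3 were below every KO library, while WT replicate 1 was above KO replicates 1 and 2. This gave a log2 fold change of 0.94 (SE 0.56, 95% interval −0.38 to 2.26) with an adjusted p of 0.632, and of 1.52 without WT replicate 1 (adjusted p = 0.0663). The spread inside the KO group alone, from 2.47 to 8.43, was wide. Exons of *Ccr9* overlap other annotated genes, by 1932 bases with *AC165425.1* and by 22 bases with *Slc6a20a* on the other strand and by 269 bases with *Gm17200* on its own, each with an FPKM of at most 0.445.

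*Ccr10* (ENSMUSG00000044052, chr11:101172997-101175443, minus strand), which plasma cells use to reach mucosae, had the opposite sign to *Ccr9*. Its FPKM was 1.93, 4.75 and 4.86 in WT and 2.13, 1.55 and 2.42 in KO replicates 1 to 3, from 92 to 254 reads. WT replicates 2 and 3 were above every KO library and WT replicate 1 was among them. Over all libraries the log2 fold change came to −0.62 (SE 0.28, 95% interval −1.29 to 0.051), with an adjusted p of 0.626. *Ccr10* was lower in *Hif1a* KO cells when WT replicate 1 was left out (log2 fold change −0.95, adjusted p = 0.0181, range over alternatives 0.0181 to 1). *Ccr9* and *Ccr10* were thus on opposite sides of 0 in both fits, and the 2 genes were not tested against each other.

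*Cxcr3* (ENSMUSG00000050232, chrX:101731535-101734269, minus strand), the receptor of interferon-induced chemokines, was the lowest of the 9. Its FPKM was 1.19, 0.635 and 0.934 in WT and 1.11, 1.14 and 1.33 in KO replicates 1 to 3. WT replicates 2 and 3 were the lowest libraries. Only 34 to 77 reads lay behind each value, and the exact Poisson 95% intervals, which cover counting error only, ran from 0.439 to 0.887 in WT replicate 2 and from 1.04 to 1.69 in KO replicate 3. With all libraries KO exceeded WT by 0.20 on the log2 scale (SE 0.14, 95% interval −0.13 to 0.54) with an adjusted p of 0.658, and by 0.30 without WT replicate 1 (adjusted p = 0.190), so no difference passed the test in either fit.

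Among the atypical receptors, *Ackr3* (ENSMUSG00000044337, chr1:90203980-90216751, plus strand), a scavenger of CXCL12, had the lowest fold change of the 9 on the log2(FPKM + 1) scale. By the ratio of the mean FPKM in KO to that in WT, *Ccr10* was lower, at 0.529 against 0.540 for *Ackr3*. The FPKM of *Ackr3* was 4.09, 9.37 and 9.72 in WT and 3.09, 5.81 and 3.63 in KO replicates 1 to 3. WT replicates 2 and 3 were above every KO library, and WT replicate 1 was between KO replicates 3 and 2. The fitted log2 fold change was −0.71 (SE 0.33, 95% interval −1.48 to 0.060), with an adjusted p of 0.626. *Ackr3* was lower in *Hif1a* KO cells when WT replicate 1 was left out (log2 fold change −1.06, adjusted p = 0.0372, range over alternatives 0.0362 to 1).

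*Ackr2* (ENSMUSG00000044534, chr9:121898355-121911074, plus strand), which takes up inflammatory CC chemokines, had an FPKM of 5.95, 3.98 and 4.34 in WT and 4.82, 8.04 and 4.71 in KO replicates 1 to 3. KO replicate 2 was the highest library and the others overlapped. For KO against WT the log2 fold change was 0.23 (SE 0.21, 95% interval −0.27 to 0.74) with an adjusted p of 0.710, and it was 0.017 without KO replicate 2, the library that held *Ddx3y*. When WT replicate 1 was left out it was 0.38 (adjusted p = 0.289), with every KO library above WT replicates 2 and 3.

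**Figure D3:**
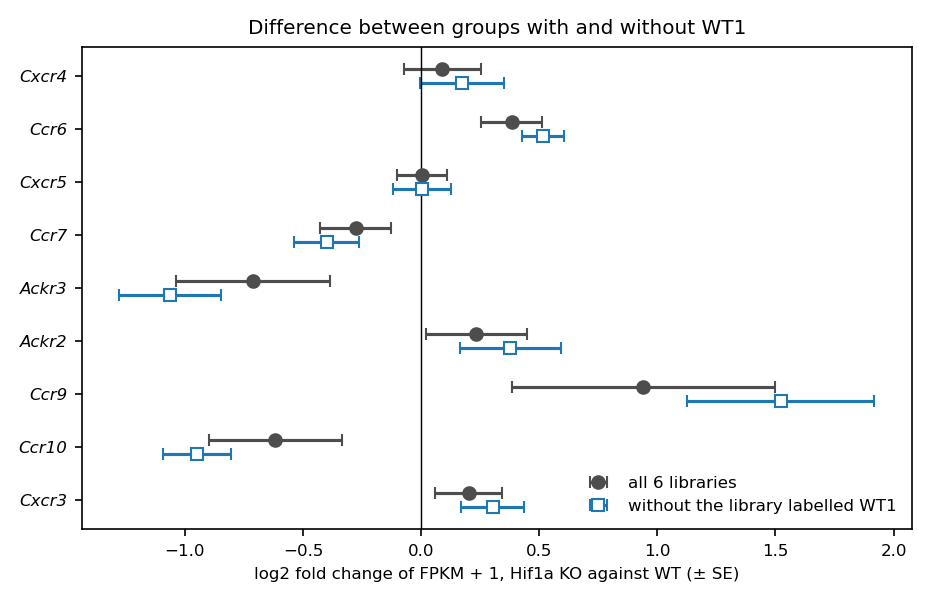
Log2 fold change of FPKM + 1 in *Hif1a* KO against WT (horizontal axis, ± SE) for each receptor, with all 6 libraries (filled) and without WT replicate 1 (open squares). Leaving out that library moved *Ccr9* from 0.94 to 1.52 and *Ackr3* from −0.71 to −1.06, and left *Cxcr5* at 0.0020 and 0.0032.

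The sequences upstream of the start are shown for the pair at the ends of the range of fold changes, *Ackr3* and *Ccr9*, and for *Cxcr4*, the member known as a hypoxia-responsive gene. They are the 250 bases before the start in RefSeq (GRCm38.p6), 5′ to 3′ on the gene's strand. Capitals mark matches to the core that HIF binds, which is ACGTG with GCGTG as its variant, on either strand. The *Ackr3* window is chr1:90203730-90203979 (plus strand), that of *Cxcr4* is chr1:128592300-128592549 (minus strand), and that of *Ccr9* is chr9:123766961-123767210 (plus strand), which lies inside the span annotated for that gene.
Ackr3: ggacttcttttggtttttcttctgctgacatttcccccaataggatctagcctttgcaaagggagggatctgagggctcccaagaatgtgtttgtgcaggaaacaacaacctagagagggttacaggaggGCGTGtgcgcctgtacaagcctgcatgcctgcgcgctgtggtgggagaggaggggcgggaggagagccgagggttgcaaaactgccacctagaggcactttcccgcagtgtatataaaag
Cxcr4: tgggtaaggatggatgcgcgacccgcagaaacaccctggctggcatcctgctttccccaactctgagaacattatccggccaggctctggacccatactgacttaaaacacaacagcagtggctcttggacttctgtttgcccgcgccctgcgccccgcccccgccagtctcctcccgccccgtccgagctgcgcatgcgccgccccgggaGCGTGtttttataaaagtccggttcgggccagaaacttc
Ccr9: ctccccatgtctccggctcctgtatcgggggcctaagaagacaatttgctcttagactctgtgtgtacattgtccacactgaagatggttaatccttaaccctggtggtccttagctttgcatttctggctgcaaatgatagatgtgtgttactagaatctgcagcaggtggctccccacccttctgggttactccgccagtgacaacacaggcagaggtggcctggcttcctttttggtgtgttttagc

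*Ackr3* held 1 match, to GCGTG, which began 120 bases before the start, *Cxcr4* held 1, also to GCGTG, 39 bases before it, and *Ccr9* held none. Of the 9 receptors, 6 had windows in the RefSeq table, 7 windows in all because *Ccr6* has 2 starts. *Cxcr3* held 1 match to GCGTG, and the *Ccr6* window at the downstream start held 1 to ACGTG on the other strand. Both matches lie inside the span annotated for the gene. The window at the upstream start of *Ccr6* and that of *Ackr2* held none. Thus 4 of 7 windows held a match. Over 32851 windows of the same length, 38.6% held one, 16.6% the form that starts with A and 28.2% the form that starts with G. The former is also part of an E-box, CACGTG, which none of the 7 windows held. A match is a run of letters and was not tested as a site.

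Ratios of receptors within a library describe the balance between destinations, and they do not depend on the scaling between libraries other than through the pseudocount of 1. The log2 ratio of *Ccr7* to *Cxcr5*, T-cell zone against follicle, was −0.21, 0.14 and 0.17 in WT and −0.092, −0.40 and −0.24 in KO replicates 1 to 3. WT replicates 2 and 3 were above 0, and WT replicate 1 and all KO libraries below 0. The KO mean was lower by 0.28 (difference −0.28, exact permutation test, two-sided, p = 0.2), where 3 libraries against 3 can give no p below 0.1. Leaving out WT replicate 1 gave −0.40 (exact permutation test, two-sided, p = 0.2), with every KO library below the other WT libraries. There, 2 libraries against 3 can give no p below 0.2.

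The log2 ratio of *Ccr6* to *Ccr7* had the largest difference of the 3 ratios, 0.66. It was 1.35, 0.51 and 0.66 in WT and 1.34, 1.85 and 1.31 in KO replicates 1 to 3 (exact permutation test, two-sided, p = 0.3). WT replicate 1 was again among the KO libraries, and without it the difference was 0.92, with every KO library above the other WT libraries. The log2 ratio of *Cxcr4* to *Cxcr5*, dark zone against light zone in the germinal center, was 1.19, 0.97 and 0.92 in WT and 1.05, 1.06 and 1.24 in KO libraries. Its difference was 0.088 (exact permutation test, two-sided, p = 0.5), and 0.17 without WT replicate 1, with every KO library above the other WT libraries. With all 6 libraries, none of the 3 ratios reached the smallest p that the design allows. Without WT replicate 1 the exact permutation p was 0.2 for each ratio, the smallest that 2 libraries against 3 allow. That library was singled out by its values, so this is no test of the genotype.

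**Figure D4:**
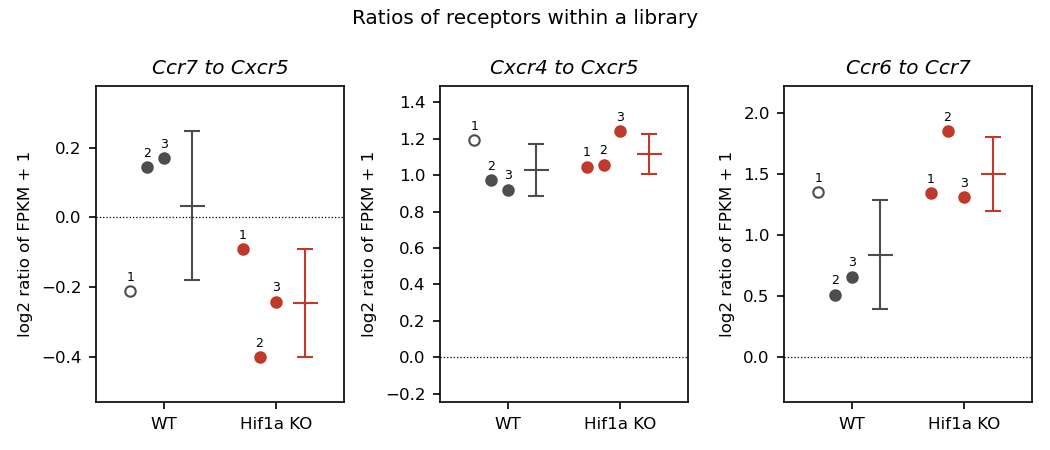
Log2 ratio of FPKM + 1 between a pair of receptors (vertical axis) in the 3 WT (grey, WT replicate 1 open) and the 3 *Hif1a* KO libraries (red), numbered by replicate, with the mean ± SD beside them. In the *Ccr6* to *Ccr7* panel WT replicate 1 is at 1.35, among the KO libraries at 1.31 to 1.85, and the other WT libraries are at 0.51 and 0.66.

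The other 15 chemokine receptors were low. Of these, 5 passed the filter of a mean FPKM of 0.5 and none was called with all 6 libraries or without WT replicate 1, with 0 at an unadjusted p under 0.05. Their median log2 fold change was −0.052. *Ccr1*, with an FPKM of 10.1 to 13.5, was above every member of the low tier. *Ccr4* had a mean FPKM of 2.98, and *Ccr8* and *Cxcr1* were listed at 0 in all libraries.

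Transcripts of chemokines that these receptors bind were mostly low in these cells, with 5 of 16 tested, 4 of them with a fold change below 0 and none called. *Ccl20*, *Ccl19*, *Ccl21b*, *Cxcl11* and *Cxcl13*, which encode ligands of CCR6, CCR7, CXCR3 and CXCR5, were listed at 0 in all libraries, and *Cxcl12*, the CXCR4 ligand, was at most 0.0236. *Ccl22*, a ligand of CCR4, had an FPKM of 794, 2132 and 1772 in WT and 791, 780 and 599 in KO replicates 1 to 3. Every KO library was below every WT library, KO replicate 1 by little. Its log2 fold change was −1.01 (SE 0.35, limma adjusted p = 0.626), and −1.44 without WT replicate 1 (adjusted p = 0.00673). *Ccl5*, a ligand of CCR1, had 7.34, 17.6 and 15.7 in WT and 6.19, 3.64 and 7.70 in KO libraries (log2 fold change −1.05, SE 0.35, limma adjusted p = 0.626). *Ccl25*, the CCR9 ligand, had a mean FPKM of 4.17. When WT replicate 1 was left out, *Ccl22*, *Ccl5* and the CXCR3 ligand *Cxcl10* were lower in *Hif1a* KO cells, 3 of the 5. In that fit 9.40% of all genes were called in either direction. *Cxcl10* had an FPKM of 0.171, 2.42 and 1.565 in WT and 0.0318, 0.348 and 0.160 in KO replicates 1 to 3. It passed the filter only through the WT libraries other than replicate 1. Its call rested on those same libraries.

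Of 30 genes that carry or end the receptors' signal, 29 were tested, 19 with a fold change above 0 and 10 below, with none called, a median of 0.044 (−0.028 over all genes) and 4 with an unadjusted p under 0.05, where 6.98% of all genes had one. The highest were *Coro1a*, an actin regulator (mean FPKM 1838), *Gnai2*, the inhibitory G protein α subunit (1063), and *Grk2*, a kinase that desensitises receptors (616). *Rgs2*, which speeds up the turn-off of G proteins, had an FPKM of 95.8, 49.6 and 50.6 in WT and 95.9, 102 and 110 in KO replicates 1 to 3. The KO libraries were all above the WT libraries, though KO replicate 1 exceeded WT replicate 1 only slightly (log2 fold change 0.71, SE 0.24, limma adjusted p = 0.626).

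*Rgs18*, of the same family, did not have this pattern. It had 1.08, 2.05 and 2.14 in WT and 3.86, 5.29 and 2.92 in KO libraries, so WT replicate 1 was the farthest from the KO values (log2 fold change 0.86, SE 0.23, limma adjusted p = 0.626). *Grk3*, another receptor kinase, had 4.08, 5.06 and 4.18 in WT and 2.47, 3.41 and 3.13 in KO libraries, again with WT replicate 1 on the WT side (log2 fold change −0.45, SE 0.13, limma adjusted p = 0.626). *Pik3cg*, the PI3K subunit downstream of Gβγ, had 15.4, 11.98 and 10.8 in WT and 15.5, 17.0 and 16.4 in KO libraries (log2 fold change 0.35, SE 0.13, limma adjusted p = 0.626). With WT replicate 1 left out, 7 of the 29 were called (limma), *Gng2*, *Rgs2*, *Rgs13*, *Rgs16*, *Arrb1* and *Pik3cg* higher and *Pik3r6* lower in *Hif1a* KO cells. Over all genes 9.40% were called in that fit, 485 higher and 766 lower. *Rgs18* and *Grk3* were not among them, with adjusted p values of 0.0890 and 0.0788.

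Summed markers of other cells differed between libraries, and not in the same way for every list. The 12 macrophage markers summed to an FPKM of 74.4, 171 and 119 in WT replicates 1 to 3 and to 67.7 to 79.5 in KO libraries, with none at 0 in every library. *Adgre1*, with a mean of 70.8, made up most of that sum, and *Lyz2* was at 58.3 and 26.2 in WT replicates 2 and 3, 6.17 in WT replicate 1 and at most 3.70 in KO libraries. *C1qa*, *Csf1r* and *Cd14*, which define macrophages, were at most 2.98. The 10 dendritic cell markers summed to 26.4 to 35.1 in WT and 17.6 to 23.3 in KO libraries, so that every KO library was below every WT library. *Fscn1* and *Flt3* were the highest of them and none was at 0 throughout.

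The 6 erythroid markers summed to 3.35, 15.8 and 12.3 in WT replicates 1 to 3 and to 2.96 to 4.84 in KO libraries, mostly *Hbb-bs* and *Hbb-bt*. The 8 neutrophil markers summed to 38.8 in WT replicate 1, with *S100a9* at 19.9 and *S100a8* at 10.9, and to at most 0.527 in every other library. The 8 NK and innate lymphoid markers summed to 2.19 to 3.27 in WT and 1.74 to 2.90 in KO libraries, with *Gzma* and *Gzmb* at 0 in all libraries and *Prf1* and *Il7r* the highest. T-cell markers summed to 139.8, 104 and 98.0 in WT replicates 1 to 3 and to 142 to 145 in KO libraries, mostly *Lck*, so that every KO library was above every WT library. Stromal and endothelial markers summed to 82.6 to 85.7 in WT and 76.7 to 98.5 in KO libraries, mostly *Pecam1*. *Lck* and *Pecam1* are also known from B cells, and the T-cell receptor component *Cd3e* was at most 0.134. The 11 plasma cell markers summed to 1488, 999 and 946 in WT replicates 1 to 3 and to 1061 to 1835 in KO libraries, with *Mzb1* and *Xbp1* the highest. Of the 10 tested, 9 had a fold change above 0, against 5604 of all 13312 genes tested. Without WT replicate 1, 2 of the 10, *Prdm1* and *Jchain*, were called higher in *Hif1a* KO cells, where 9.40% of all genes were called in either direction. Of the 12 B-cell markers, 9 were above 0 and 3 below, and 3 were called higher without WT replicate 1. All 7 dendritic cell markers tested were below 0, with 2 called lower in that fit. So were 2 of 5 macrophage and 2 of 3 erythroid markers tested. The macrophage and erythroid calls each included a gene that passed the filter only through WT replicates 2 and 3. The part of the marker lists in the receptor values was not tested.

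The genes whose log2(FPKM + 1) followed a receptor most closely over the 6 libraries are given as a description, since the highest of 13312 correlations over so few libraries is high in any case. For *Ccr6* these were *Hectd3*, *Xpa* and *Map3k14*, the NF-κB-inducing kinase of the BAFF receptor pathway (Pearson's r 0.999, 0.997 and 0.996). For *Ccr7* they were *Bnip3*, known as a hypoxia-induced gene (0.994), *Gatb* and *Psmb5*. For *Cxcr4* they were *Chmp2a*, *S1pr2*, a receptor that keeps germinal center B cells confined (0.995 for both), and the pseudogene *Rpl9-ps4*. For *Cxcr5* they were *Gpx7*, *Laptm4a* and *Trnau1ap* (0.991 to 0.995), for *Ackr2* *Tbc1d10c*, *Gm43071* and *Clcf1* (0.993 to 0.996), and for *Ackr3* *Ccdc124*, *Trp53* and *Map1s* (0.994 to 0.999). The libraries shared by all these points include the pair WT replicates 2 and 3, which stood apart along the first principal component.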

How the data were processed

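Bulk RNA-seq was analysed from 6 libraries, 3 WT and 3 *Hif1a* KO. Per the labels, RNA was made into libraries with a SMARTer kit. Per the study's methods, the authors removed adapter and low-quality reads, aligned to mm10 with TopHat, counted reads per gene with HTSeq and computed FPKM from gene length and reads. The deposited FPKM values were used here. The annotation release, the strand option and the treatment of reads with several hits are not given in the sources used here. Symbols and coordinates came from GENCODE M21, in which 46488 of 46983 gene IDs matched. The worth of 1 read was found from genes with 1 annotated transcript, which gave 25030210 to 37222477 reads per library as the FPKM denominator. A length was then sought for each gene at which its FPKM were whole reads (tolerance 0.02 of a read). Such a length was found for all 25717 genes above 0, and for 11517 genes it was the median annotated transcript length. Since the length was fitted, whole reads are no check on the values, least of all for genes with few reads.

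The 13312 genes whose mean FPKM reached 0.5 were tested in limma (version 3.58.1) on log2(FPKM + 1), with a trended prior and Benjamini-Hochberg adjustment at 0.05, and 3 ratios with an exact permutation test over libraries. The script was tested on simulated data. The alternatives were another pseudocount, filters, scalings and prior, library weights, recovered reads with voom, the replicate block and each library left out, and FPKM rescaled to the longest transcript, which was added after seeing the data.

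The members and the lists (other receptors, ligands, signalling genes, markers of B cells, plasma cells, macrophages, dendritic cells, neutrophils, T cells, NK and innate lymphoid cells, stroma and erythroid cells) were chosen with earlier results of these data known. All members were named. Of the other receptors, ligands and signalling genes, those with an unadjusted p under 0.05 or groups that did not overlap, and the 3 with the highest mean FPKM, were named; ligands and receptors listed at 0, and genes called without WT replicate 1, were named after their values were seen. A gene that this rule named is not reported here. For each member with a mean FPKM of at least 5, the 3 genes with the highest Pearson's r were named. Of marker lists whose sum spanned more than 1.5-fold, the 2 highest genes and any at 0 were named; *C1qa*, *Csf1r*, *Cd14*, *Cd3e*, *Lck*, *Pecam1*, *Prdm1*, *Jchain* and *Ddx3y* were named after their values were seen. Upstream sequences came from the RefSeq table of GRCm38.p6.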

Additional observations from a re-analysis of the deposited data

How the results depend on the processing

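With 0 genes called over all 6 libraries, 929 had an unadjusted p under 0.05, and voom on the recovered reads called 0 genes as well. Without WT replicate 1, 1251 genes and 3 of the 9 receptors (*Ccr6*, *Ccr10* and *Ackr3*) were called, and with library weights, which gave WT replicate 1 a weight of 0.238, 1449 genes and the same number of receptors, 3, by limma. Over the fits with 1 library left out the number of genes called ran from 0 to 1251 (1 without KO replicate 1) and that of receptors from 0 to 3. No other receptor outside the 9 was called in any alternative. The weighted fold changes of the 3 were 0.48 for *Ccr6*, −0.91 for *Ccr10* and −1.03 for *Ackr3*. The median fold change of the 9 receptors ran from −0.092 (without KO replicate 3) to 0.20 (without KO replicate 1). The sign reversed for *Cxcr4* without KO replicate 3 (−0.092) and for *Cxcr5* without immunoglobulin genes (−0.0037), with library weights (−0.041), without WT replicate 3 (−0.020) and without KO replicate 3 (−0.12); the cause was not tested. With 1 library left out, *Cxcr5* ran from −0.12 to 0.076 and *Cxcr4* from −0.092 to 0.20. Of 150 fold changes of receptors under alternatives, 139 kept direction and call.

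The 3 ratios, recomputed with a pseudocount of 0.1, with each library left out and within replicate numbers, kept their direction in these alternatives; the others were not run on them. Samples with the same replicate number did not deviate together (r −0.099, 0.14 and −0.28). With 3 libraries per group and WT replicate 1 apart from its group, this cannot settle whether the numbers pair the samples. With the replicate block 0 genes and 0 receptors were called, and the ratios differed by −0.28 (*Ccr7* to *Cxcr5*), 0.088 (*Cxcr4* to *Cxcr5*) and 0.66 (*Ccr6* to *Ccr7*), with exact sign-flip p values of 0.5, 0.75 and 0.5, where 3 pairs can give no p below 0.25. Each value of *Cxcr3* and *Ccr10* rested on 34 to 254 reads.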
